A study of Arabidopsis thaliana with 4 samples.

Results

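Plant genes of the aluminium-induced family encode small proteins that carry the conserved amino acid motifs YGL and LRDR, and 5 Arabidopsis loci of this family were followed here, AT4G27450, AT5G19140 (AILP1), AT3G15450, AT5G43830 and AT3G22850. They were chosen by locus from this family annotation, with earlier results of these data known. A gene counted as measured when the platform's probe table assigned a probe set to that gene alone. All 5 of the 5 were measured, each by a single such probe set, among 22746 probe sets tested and 13286 genes with an assigned probe set. The probe set names of all 5 end in the plain suffix _at, which the manufacturer keeps for probe sets without noted cross-matching to other transcripts. Of all probe sets tested, 4.66% end in _s_at or _x_at.

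The samples were 4 one-colour Affymetrix expression arrays of root RNA from Arabidopsis thaliana plants of the common laboratory accession Col-0, 3 weeks old. In the low oxygen group (2 replicates) the canisters that held the plants were flushed for 20 minutes with gas containing 0.1% oxygen and were then sealed, and in the normal oxygen group (2 replicates) canisters were neither flushed nor sealed. Both groups had spent the preceding 24 hours in liquid medium with 3% sucrose, both were kept for 5 hours in canisters wrapped in foil, and so both were in darkness with sugar in the medium. A replicate pooled 5 seedlings of the same dish, whose roots were cut off at the end. Flushing and sealing came with low oxygen in both replicates, so their effects and that of oxygen cannot be told apart.

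The family took its name from a wheat transcript that rises in roots exposed to aluminium, and its proteins resemble the glutamine amidotransferase domain at the amino end of asparagine synthetase. What most of them do in the cell is not known. AT3G15450 is widely used as a marker of sugar starvation and of the energy-sensing kinase SnRK1, since its transcript accumulates in darkness and falls when sugar is supplied. AT4G27450 belongs to the core set of Arabidopsis genes that are induced by hypoxia across cell types. AILP1 carries the family's own symbol. Sequences of the proteins and promoters were not used here.

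All values below are the deposited RMA expression values on a log2 scale, on which a difference of 1 is a doubling, and a log2 change is low oxygen minus normal oxygen. A gene is said to rise or fall where limma's test, adjusted by Benjamini-Hochberg over all 22746 probe sets, gave an adjusted p under 0.05. Values of different probe sets cannot be set against each other as transcript amounts, so each gene is compared only with itself. In pieces of whole root, fewer cells of a type and less RNA per cell cannot be told apart.

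At low oxygen 3 of the 5 genes rose and none fell. AT4G27450 rose 5.74-fold, AILP1 2.75-fold and AT3G15450 2.06-fold. The remaining pair, AT5G43830 and AT3G22850, stood slightly lower at low oxygen, with adjusted p = 0.0526 and 0.0554 in limma's test. Of all probe sets tested, 15.8% passed the threshold as higher, 17.6% as lower and 33.4% in either direction, so passing the test was common on these arrays. The median log2 change of the 5 genes was 1.04, against -0.0018 over all probe sets tested.

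**Figure D1:**
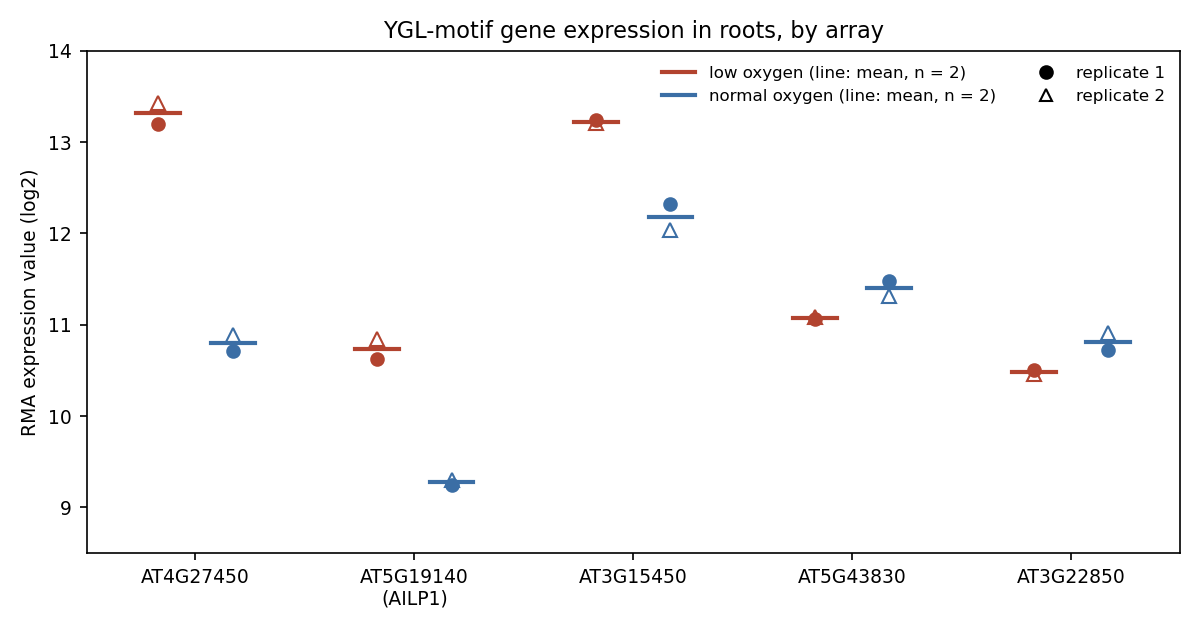
RMA expression values (log2, vertical axis) of the 5 YGL-motif genes on each array, with low oxygen left of normal oxygen for each gene, points for replicates and lines for group means. The groups are apart for each gene, with low oxygen above normal oxygen for AT4G27450, AILP1 and AT3G15450 and below it for AT5G43830 and AT3G22850.

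AT4G27450, the hypoxia gene of the family, had expression values of 13.20 and 13.43 on the low oxygen arrays, against 10.71 and 10.88 on the normal oxygen arrays. Both low oxygen values lay far above both normal oxygen values, and the gaps between replicates, 0.22 at low oxygen and 0.17 at normal oxygen, were small beside that distance. The log2 change was 2.52 (SE 0.12, 95% interval 2.23 to 2.81, adjusted p = 2.4e-05). Only 1.13% of all probe sets tested had a log2 change at least as large. The low oxygen values approached the top of the scale, which ended at 13.86 and 13.99 on the 2 low oxygen arrays, where array signal can be compressed; the part of this in the size of the change was not tested.

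AILP1, the member named for the family, stood at 10.63 and 10.84 at low oxygen, against 9.24 and 9.31 at normal oxygen. The groups did not overlap, and the normal oxygen replicates lay close together, 0.06 apart. Its log2 change was 1.46 (SE 0.11, 95% interval 1.19 to 1.73, adjusted p = 1.4e-04). A change at least as large was seen in 3.10% of probe sets.

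AT3G15450, the sugar starvation marker, was at 13.24 and 13.20 at low oxygen, against 12.32 and 12.04 at normal oxygen. The transcript was thus already bright at normal oxygen, in roots that had been in darkness with sucrose, and both low oxygen values were higher still. The log2 change was 1.04 (SE 0.12, 95% interval 0.75 to 1.34, adjusted p = 8.3e-04), and 4.93% of probe sets had a change at least as large. As for AT4G27450, its low oxygen values were near the top of the scale. The normal oxygen replicates differed by 0.28, the widest gap between replicates among the 5 genes, and the change was 0.90 without normal oxygen replicate 2 and 1.19 without normal oxygen replicate 1.

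AT5G43830 had values of 11.06 and 11.08 at low oxygen, against 11.48 and 11.32 at normal oxygen. Its low oxygen replicates were only 0.02 apart, and both lay below both normal oxygen values. The log2 change was -0.33 (SE 0.10, 95% interval -0.57 to -0.08), a 1.25-fold lower value at low oxygen, with an unadjusted p of 0.0177 and an adjusted p of 0.0526 in limma's test.

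AT3G22850 was much like it, at 10.50 and 10.46 at low oxygen, against 10.72 and 10.91 at normal oxygen. The groups did not overlap here either. The log2 change was -0.33 (SE 0.11, 95% interval -0.59 to -0.07), a 1.26-fold lower value at low oxygen, with an unadjusted p of 0.0189 and an adjusted p of 0.0554 in limma's test. Both genes missed the threshold narrowly, and both intervals, which are not adjusted for the number of probe sets, lay below 0 and above a 2-fold fall. All 5 genes had an unadjusted p under 0.05, as did 41.7% of all probe sets.

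**Figure D2:**
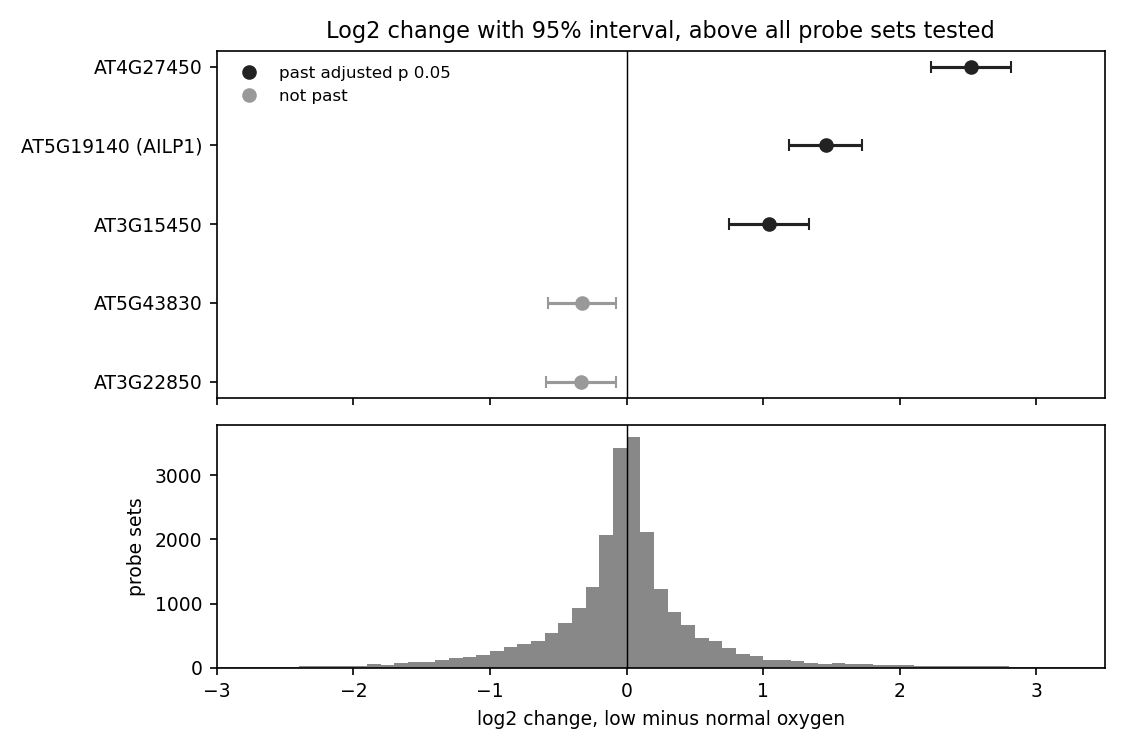
Log2 change (low minus normal oxygen, horizontal axis) of the 5 genes with 95% intervals in the upper panel, above the number of probe sets at each log2 change among all those tested in the lower panel. AT4G27450 at 2.52, AILP1 at 1.46 and AT3G15450 at 1.04 lie in the right tail, and AT5G43830 and AT3G22850, both at -0.33, lie within the main body.

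The groups did not overlap for any of the 5 genes, which were higher at low oxygen in 3 and lower in 2. Of all probe sets, 64.5% had groups that did not overlap, 31.4% with low oxygen higher and 33.1% with it lower. For 2 arrays against 2 the smallest two-sided p of an exact permutation test is 0.333, so no single gene could pass such a test.

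The 4 array-to-array differences of each gene (each low oxygen array minus each normal oxygen array) gave the order of the changes. For AT4G27450 they ran from 2.32 to 2.72 and for AILP1 from 1.32 to 1.60, so these genes were apart. AT3G15450 ranged from 0.88 to 1.20, below AILP1 without overlap. The 95% intervals of these genes did overlap, at 0.75 to 1.34 for AT3G15450 and 1.19 to 1.73 for AILP1. AT5G43830 ranged from -0.42 to -0.24 and AT3G22850 from -0.45 to -0.22, and these last ranges overlapped. Differences between the genes' changes were not tested.

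The calls for the 3 genes that rose held under all 12 alternatives tried, with log2 changes of 2.41 to 2.63 for AT4G27450, 1.35 to 1.56 for AILP1 and 0.90 to 1.19 for AT3G15450. The weakest was AT3G15450 when tested against a fold of 1.5, with adjusted p = 0.0412 in limma's treat test. The other pair depended on the setting. AT5G43830 passed as lower in 3 of 12 alternatives and AT3G22850 in 2 of 12. Their log2 changes were below 0 in all 12, between -0.41 and -0.24 and between -0.43 and -0.24. Many alternatives alter only the test, the rows tested or how several probe sets are combined, so they could not move these log2 changes. Where groups do not overlap, as for all these genes, leaving out an array cannot reverse a sign. The kept signs were thus largely fixed in advance, and the ranges of log2 change are those reached when single arrays were left out. AT3G22850 passed without normal oxygen replicate 1 (log2 change -0.43, adjusted p = 0.0410 in limma's test).

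**Figure D3:**
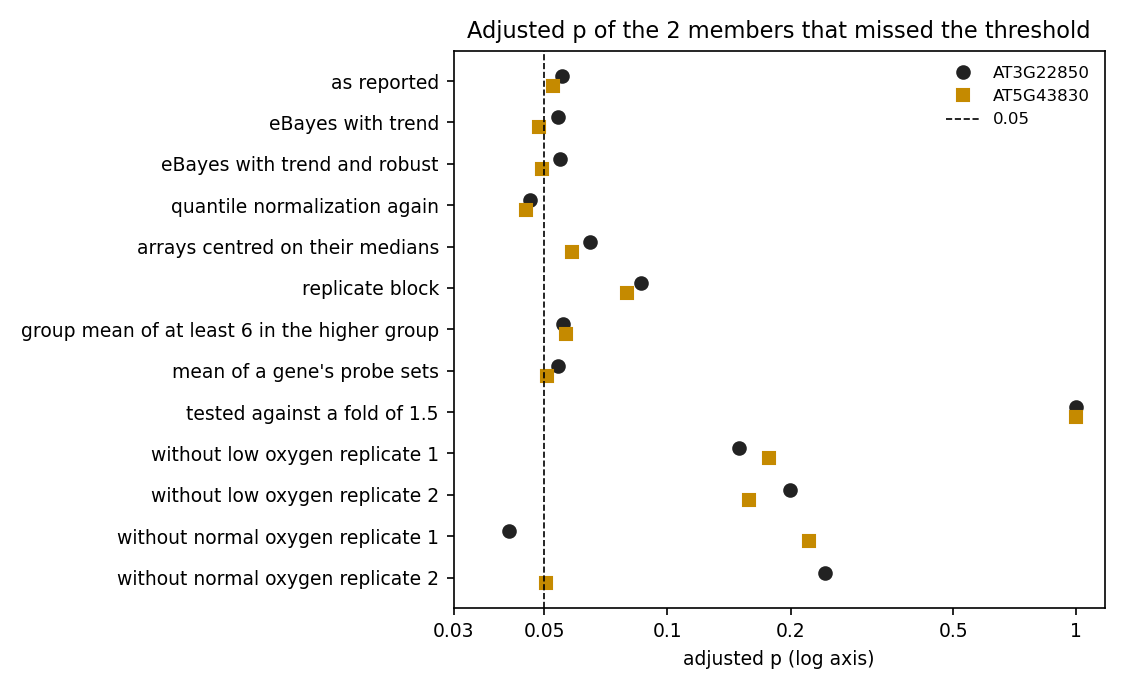
Adjusted p (log axis) of AT3G22850 and AT5G43830 under the reported fit and each alternative, with the 0.05 threshold as a dashed line. The points lie close to the line at 0.0554 and 0.0526 in the reported fit and fall on either side of it elsewhere, with both at 1 when tested against a fold of 1.5.

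AT4G27450 was set beside other genes that Arabidopsis roots are known to induce at low oxygen. The list was chosen with earlier results of these data known. Of 47 such genes listed, 28 were measured, of which 26 rose, none fell and 2 did not pass (AT5G47060 at 0.38 and AT5G45960 at -0.16, adjusted p = 0.1946 and 0.3197 in limma's test). Their median log2 change was 2.68. Over all genes with an assigned probe set, 14.3% rose and 16.3% fell. The change of AT4G27450, 2.52, lay a little below that median: 18 of the 26 that rose had a larger change and 8 a smaller one. AILP1 and AT3G15450, which are not on the list, had smaller changes than 25 and 26 of the 28.

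The largest changes of that list by far exceeded those of the YGL-motif genes. AT5G10040, which encodes a small hypoxia-induced protein, was at 12.31 and 12.84 at low oxygen, against 4.71 and 5.67 at normal oxygen (log2 change 7.39, SE 0.31). AT2G17850, a rhodanese-domain gene, changed by 5.42 (SE 0.26), and CML38, whose calmodulin-like product senses calcium, by 5.37 (SE 0.45). All 3 started below 7 at normal oxygen, where RMA values of dim probe sets are least certain, whereas AT4G27450 had 10.71 and 10.88 there.

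AT3G15450 was set beside a list of genes linked to sugar starvation or to SnRK1, which includes subunit genes of the kinase itself. This list, too, was chosen with earlier results of these data known. Of 28 listed, 7 were measured, of which 5 rose, none fell and 2 did not pass, with a median log2 change of 1.71. Most of the list had no probe set assigned to the gene alone, so the measured genes cannot stand for the whole list. Of the 5, 4 have products known from the breakdown of leucine, a grouping made after the values were seen, and their log2 changes ran from 1.71 to 3.18. MCCA, the biotinylated subunit gene of methylcrotonyl-CoA carboxylase, was at 11.93 and 11.58 at low oxygen, against 8.81 and 8.32 at normal oxygen (log2 change 3.18, SE 0.19, adjusted p = 5.1e-05). IVD, the isovaleryl-CoA dehydrogenase gene, was at 11.46 and 11.49 at low oxygen, against 9.07 and 8.61 at normal oxygen (log2 change 2.64, SE 0.16, adjusted p = 5.2e-05).

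MCCB, which encodes the other carboxylase subunit, changed by 2.21 (SE 0.13), and ETFQO, whose product passes electrons from such breakdown to ubiquinone, by 1.71 (SE 0.10). The fifth rise was that of AKINBETA1, a regulatory subunit gene of SnRK1 itself, at 1.58 (SE 0.14). BZIP53, a transcription factor gene of the starvation response, had a log2 change of -0.41 (adjusted p = 0.0593 in limma's test), and D2HGDH, of hydroxyglutarate oxidation, one of -0.30 (adjusted p = 0.0772 in limma's test). All 5 genes of this list that rose had larger changes than both AT3G15450 and AILP1, while 2 of the 7 exceeded AT4G27450.

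**Figure D4:**
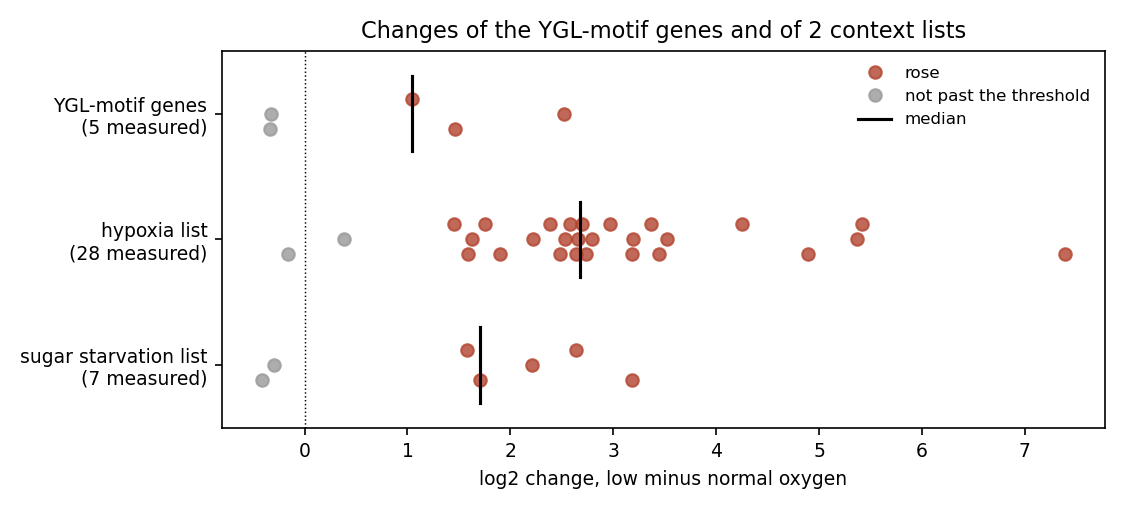
Log2 change (low minus normal oxygen, horizontal axis) of each measured gene among the YGL-motif genes, the hypoxia list and the sugar starvation list, with a vertical bar at each median and grey points for genes that did not pass. The medians lie at 1.04, 2.68 and 1.71, and each group holds a pair of genes that did not pass.

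The enzymes whose domain the YGL-motif proteins resemble were covered by 1 gene of 10 listed. GFAT, which makes glucosamine phosphate with the amide of glutamine, was at 6.43 and 6.58 at low oxygen, against 6.41 and 6.87 at normal oxygen (log2 change -0.13, adjusted p = 0.6142 in limma's test). Of 8 aluminium tolerance genes listed, 1 was measured, the citrate transporter gene AT1G51340, which was dim in both groups (log2 change -0.04, adjusted p = 0.8179 in limma's test). The asparagine synthetase genes and the remaining aluminium genes were not analysed here.

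For each gene that rose, the genes whose values over the 4 arrays, each centred on its own mean, came closest were found by the root mean square difference among 13281 other genes. Closest to AT4G27450 were AT5G64870 (difference 0.041), AT4G39675 (0.065), a gene of the hypoxia list, and AT2G33710 (0.074). Their log2 changes were 2.48, 2.58 and 2.50. Closest to AILP1 were AT2G47720 (0.043), AT4G24160 (0.050) and AT5G07860 (0.056), and closest to AT3G15450 were AT5G58200 (0.020), HON4 (0.032), a linker histone-like gene, and AT5G54520 (0.035). Within a difference of 0.1 there were 17 genes for AT4G27450, 36 for AILP1 and 80 for AT3G15450. With 4 arrays in 2 groups, such likeness mostly says that the changes were of equal size.

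The labelled tissue was checked against cell type markers, most of which were not measured by name. Of 12 root markers, 3 were measured and all 3 fell, where 16.3% of all genes with an assigned probe set fell. They were EXPA7 and EXPA18, expansin genes of root hairs, and AT1G62500, a cortex marker. EXPA18 fell by 3.53, EXPA7 by 2.50 and AT1G62500 by 0.92 on the log2 scale. The cortex marker was dim in both groups, at 4.97 and 5.30 at low oxygen, against 5.91 and 6.19 at normal oxygen. The summed linear values of the 3 markers were 385 and 309 at low oxygen, against 2787 and 2487 at normal oxygen. The brighter root hair probe sets dominate this sum, which is not a measure of transcript amounts. Of 11 shoot markers, 1 was measured, RCA, whose product activates Rubisco, and it rose, at 8.14 and 8.37 at low oxygen, against 7.11 and 6.79 at normal oxygen. These markers moved with the same groups as the YGL-motif genes, and their part in the changes of AT4G27450, AILP1 and AT3G15450 was not tested.

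Replicate arrays resembled each other closely: the SD over all probe sets of the log2 difference between replicates was 0.195 at low oxygen and 0.205 at normal oxygen. Array medians lay between 6.33 and 6.36. The gaps between replicates of the 5 genes ran from 0.02 to 0.28. The number of arrays limits the precision of every comparison.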

How the data were processed

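The deposited values are log2 expression values of 22810 probe sets on 4 Affymetrix arrays, made by the authors with RMA, which corrects background, equalises the arrays and summarises probes. Per the submitters' processing notes the tools were RMA and limma, with no versions; a genome build is not given in the sources used here. Biotin-labelled cRNA came from 7 ug of total RNA, per the labels' protocols. RMA removes any shift shared by all transcripts.

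After 64 control probe sets were left out, 22746 entered 1 fit across both groups (R 4.3.3 with limma 3.58.1, lmFit followed by eBayes with its default prior, two-sided, no block, Benjamini-Hochberg over all probe sets, threshold 0.05). The fit had 2 residual and 4.63 prior degrees of freedom. Probe sets were named from GEO's platform annotation and the RefSeq gene table of TAIR10.1: 13436 of 13513 single-gene probe sets matched, 503 had several genes and 8730 were not listed. A gene took its probe set with the highest mean.

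The family members and context lists were chosen with earlier results of these data known. From each list, up to 3 genes per direction were named by size of change, or 2 as values where none passed, and 3 similar genes for each member that rose. Further list genes were named after their values were seen. Per the labels, each replicate is its own pool of plants. The procedure was run on simulated data with known changes. Their noise was drawn from the fit's own model, and far fewer probe sets changed than were called here. That run therefore cannot tell how reliable the calls in these data are.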

Additional observations from a re-analysis of the deposited data

Results flagged for a closer look

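Outside the gene comparison, a control for 25S ribosomal RNA drew attention because it was brighter in both low oxygen replicates, at 12.94 and 12.74 at low oxygen, against 6.54 and 7.26 at normal oxygen (log2 change 5.94, SE 0.22, limma adjusted p = 1.1e-05 in a fit that included the control probe sets). It moved with the same groups as AT4G27450, AILP1 and AT3G15450, and its part in their changes was not tested.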

How the results depend on the processing

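With 2 arrays per group, the count of YGL-motif genes that rose stayed at 3 under all 12 alternatives. The count that fell, 0 as reported, was 1 with a trended prior (AT5G43830 at -0.33, adjusted p = 0.0485), 1 with a trended and robust prior (AT5G43830 at -0.33, adjusted p = 0.0494) and 2 with the values quantile-normalized again (AT3G22850 at -0.34 and AT5G43830 at -0.36, adjusted p = 0.0461 and 0.0452) and between 0 and 1 when single arrays were left out. Without each array the log2 change of AT3G22850 ran from -0.43 to -0.24 and that of AT5G43830 from -0.41 to -0.24. In the sugar starvation list, 1 gene, BZIP53, also passed as lower under both of those priors, quantile normalization again and a minimum group mean of 6, and the count ran from 0 to 1 without each array. Among all those tested, 3594 probe sets were higher and 3999 lower, against 1908 and 2176 with 1 mean value per gene, which tests fewer rows, and 1149 and 1154 when tested against a fold of 1.5. Most of the 21 other named genes were chosen for large changes past the threshold or for likeness to members that rose. That choice made a change of call unlikely. Of 251 comparisons of these 21 genes with alternatives, 247 kept direction and call. The 2 that changed direction were of genes that never passed, and with single arrays left out GFAT (AT3G24090) lay between -0.36 and 0.095 and AT1G51340 between -0.085 and 0.0028. The call ended for AT1G62500 (adjusted p = 0.2491) and AT5G58200 (adjusted p = 0.0597) against a fold of 1.5. Where no construction shows it, the cause was not tested. Same-numbered replicates did not deviate together (r = 0.02 over probe sets), and no label pairs them. With the replicate block 3288 probe sets were higher and 3651 lower. As each group holds each replicate number once, the block cannot alter a log2 change, only its test. AT3G15450, at 1.04, had adjusted p = 0.0037 in limma's test with the block, and no call for the 5 genes changed. Each of the 5 genes has a single probe set, so treating several apart gave no value. A lone array was assumed to vary like the other group.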

Other observations

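The normal oxygen arrays were compared with each other over the genes of both context lists. Of the 26 hypoxia list genes that rose at low oxygen, 23 were higher on normal oxygen replicate 2 than on replicate 1, by a median of 0.56 on the log2 scale, against 45.7% of all probe sets tested. Of the 5 sugar starvation genes that rose, 4 were higher on replicate 1, with a median of -0.33 for replicate 2 minus replicate 1, but so were 12325 of the 22746 probe sets tested, and 5 genes are too few to set apart from that share. AT4G27450 was higher on replicate 2 (0.17), as was AILP1 (0.06), and AT3G15450 was higher on replicate 1 (-0.28). This comparison was chosen after the values were seen, it rests on 1 array each way, and genes that share arrays are not independent.

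The genes next to the YGL-motif genes on their chromosomes were read from the RefSeq order. Of 10 neighbouring protein-coding genes, 6 were measured, of which 1 rose, 1 fell and 4 did not pass. Among all genes with an assigned probe set 14.3% rose and 16.3% fell, and 6 neighbours are too few to set apart from those shares. AT3G15440, beside AT3G15450, was dim in both groups, at 5.47 and 6.01 at low oxygen, against 3.86 and 3.92 at normal oxygen (log2 change 1.85, SE 0.18, limma adjusted p = 3.5e-04). AT3G22845, beside AT3G22850, fell by 0.50 on the log2 scale (SE 0.15, limma adjusted p = 0.0392). PORB, a chlorophyll synthesis gene beside AT4G27450, had a log2 change of 0.16 (limma adjusted p = 0.4315). The measured neighbours of AILP1, AT5G19130 and AT5G19150, had changes of -0.21 and 0.10 (limma adjusted p = 0.1487 and 0.5368).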
